A study of Mus musculus with 8 samples.

Results

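The Wnt pathway was followed here through 47 genes: 15 Wnt ligand genes, 10 Frizzled receptor genes, the co-receptor genes Lrp5 and Lrp6, the receptor tyrosine kinase genes Ror1 and Ror2, 7 genes of secreted antagonists, 3 R-spondin genes with their receptor gene Lgr5, the nuclear factor genes Lef1 and Tcf7, and 5 feedback targets. They were taken by gene symbol from a table of 55421 genes, and all 47 were found. RNA had been taken from the vagal region, at the level of somites 1 to 7, of E9.5 mouse embryos. Of the 8 libraries, 4 had the genotype Rdh10(trex/trex), called trex here, and 4 were wild type, called wt; the wt titles run from 5 to 8 and their replicate labels from 1 to 4. Rdh10 encodes a retinol dehydrogenase of retinoic acid synthesis. The labels name no strain, litter or pooling and do not describe the allele further, so a p-value here reflects the variation among these particular samples, part of which may be technical.

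Wnt proteins are secreted, lipid-modified ligands. In the canonical branch a Wnt binds a Frizzled receptor together with Lrp5 or Lrp6, beta-catenin escapes degradation, and it acts in the nucleus with Lef1 and Tcf factors on targets that include Axin2. In other branches ligands such as Wnt5a act through Ror receptors and do not need beta-catenin. In the early embryo Wnt1 and Wnt3a mark the dorsal midline of the neural tube, Wnt3a also maintains the caudal progenitors of the body axis, and Wnt2 and Wnt2b act on the foregut from the surrounding mesoderm.

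Values are TPM, transcript abundances scaled to gene length and to a fixed library total, so levels can be compared between genes. Of the 47 genes 46 had a mean of at least 1 TPM and were tested. Wnt10a was below that level, with means of 0.658 ± 0.258 TPM for trex and 0.498 ± 0.078 TPM for wt (SD, n = 4 libraries a group, as for every mean here), and was not tested. A gene was called when its adjusted p in limma, corrected over all 15717 genes tested by the Benjamini-Hochberg method, was below 0.05. Recovered depth was between 20928981 and 23648646 reads per library, and no called Wnt gene rested on fewer than 23 reads in any library. The Rdh10 transcript itself differed by 0.92 on the log2 scale, higher in trex (limma adjusted p = 0.0126), and since the labels do not say what the allele does to the transcript, its level checks nothing. Trex replicate 1 stood apart: it held the highest trex value of 24 of the 46 genes and the lowest of 11.

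The Wnt genes moved both ways. In trex, 6 genes rose, Notum, Wnt3a, Ror1, Fzd7, Lef1 and Fzd1, and 2 fell, Wnt2b and Wnt5a. The other 38 did not pass the test. These 8 were 17.4% of the tested Wnt genes, beside 8.71% called among all genes tested. The genes were chosen with earlier results of these data known, so these shares are no test of enrichment. By direction, 4.94% of all genes were called higher and 3.77% lower. The 4 trex and 4 wt values did not overlap for 16 of the 46 genes, 11 with trex above wt and 5 with trex below, beside 21.8% of all genes tested (12.9% above and 8.95% below). The median log2 difference over the 46 genes was 0.03, and over all genes tested it was 0.04. Scaling changed the balance of calls over all genes, from 777 higher and 592 lower to 633 and 739 with quantile normalization, where 6 Wnt genes were called higher and 3 lower.

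**Figure D1:**
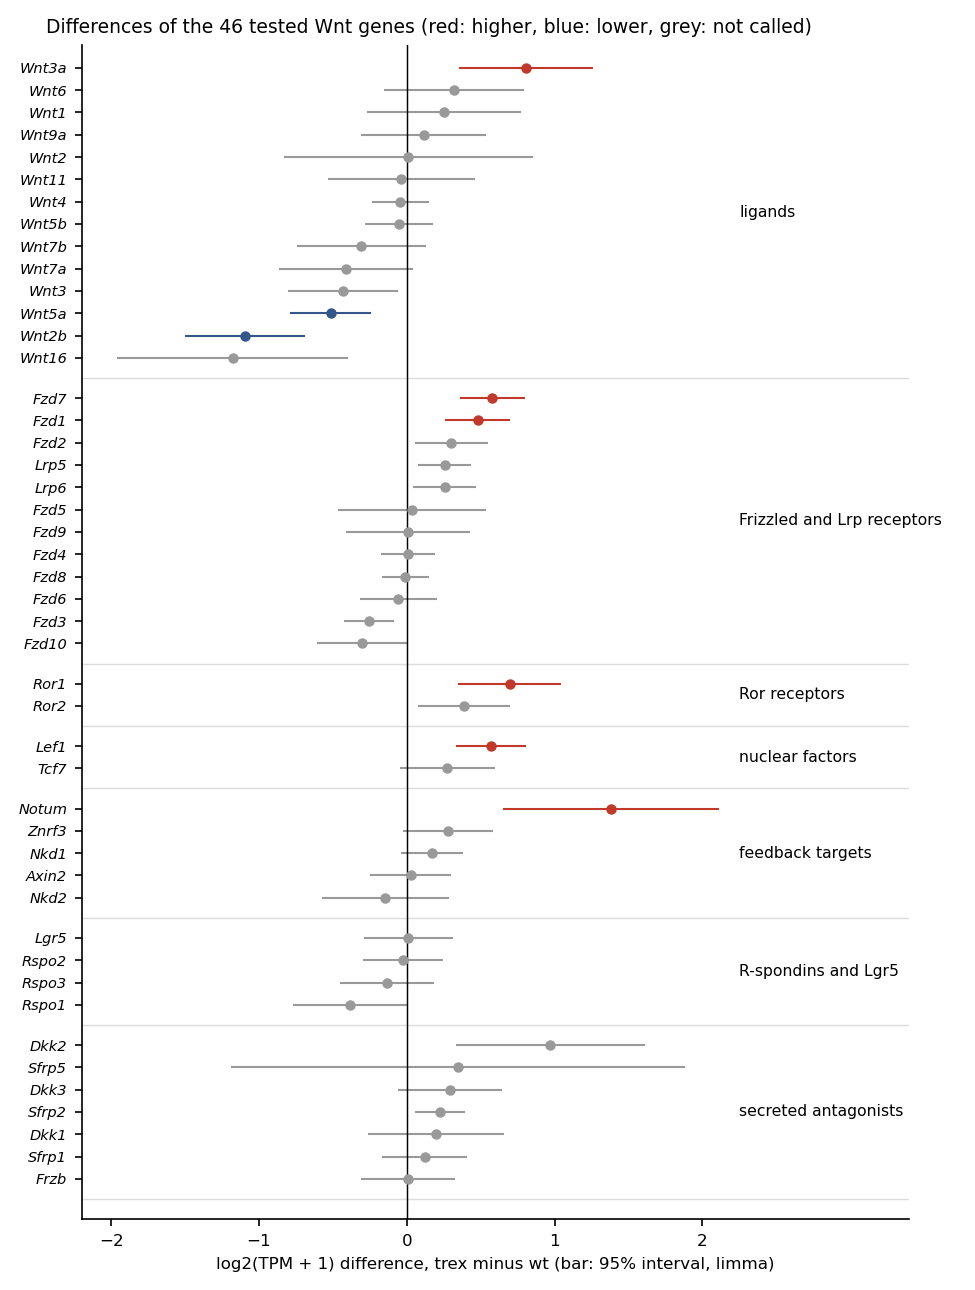
Difference between trex and wt on the log2(TPM + 1) scale for the 46 tested Wnt genes, grouped by role. Points are the limma estimate, bars its 95% interval without correction for multiple tests. The 6 genes called higher are red, the 2 called lower blue, and the 38 grey genes were not called.

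Promoter windows of these genes held the GC box more often than promoter windows of all genes. RefSeq windows on GRCm38.p6, the assembly of mm10, reach from 250 bases before to 50 bases after a gene's start, and 31 of the 47 genes had at least 1 such window, 38 windows in all. The GC box GGGCGG, searched on both strands with overlaps counted, was in 29 of the 38 windows, or 76.3%, and in 35.7% of the 32851 windows of all genes. These windows were also richer in C and G, with a median of 67% against 52.7% of bases, and in CG dinucleotides, with a median of 25 against 7 per window. The TCF/LEF core, read as CTTTGAT or CTTTGAA on either strand, was in 3 windows (7.89%, against 8.65% of all windows), those of Dkk1, Wnt11 and Wnt5b. The DR5 element of retinoic acid receptors, searched on both strands, was in none of the 38 and in 0.0974% of all windows. A match or its absence in so short a window says nothing of binding. The stretches from 150 to 11 bases before the RefSeq start are shown for 4 genes that rose, with GC boxes in capitals. For Wnt11 the TCF/LEF core alone is in capitals. For Fzd7 and Fzd1 the RefSeq start lies upstream of the start in the GENCODE gene coordinates given below. The stretches run from 5 GC boxes in Wnt3a to none in Fzd1, so the genes that rose did not share this motif in this stretch.
Wnt3a (chr11:59290762-59290901, minus strand): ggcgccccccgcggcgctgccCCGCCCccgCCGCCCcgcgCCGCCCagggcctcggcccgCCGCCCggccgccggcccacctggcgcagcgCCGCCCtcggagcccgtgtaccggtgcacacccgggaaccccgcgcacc
Fzd7 (chr1:59481997-59482136, plus strand): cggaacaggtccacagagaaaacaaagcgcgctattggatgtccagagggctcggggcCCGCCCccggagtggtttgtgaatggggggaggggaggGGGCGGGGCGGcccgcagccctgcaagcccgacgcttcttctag
Ror1 (chr4:100095641-100095780, plus strand): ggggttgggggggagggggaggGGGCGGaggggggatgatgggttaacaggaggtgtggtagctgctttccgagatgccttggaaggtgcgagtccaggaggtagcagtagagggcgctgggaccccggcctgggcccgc
Fzd1 (chr5:4758227-4758366, minus strand): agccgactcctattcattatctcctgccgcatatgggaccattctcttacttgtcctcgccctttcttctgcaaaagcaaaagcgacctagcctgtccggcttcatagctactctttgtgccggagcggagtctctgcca
Wnt11 (chr7:98834962-98835101, plus strand): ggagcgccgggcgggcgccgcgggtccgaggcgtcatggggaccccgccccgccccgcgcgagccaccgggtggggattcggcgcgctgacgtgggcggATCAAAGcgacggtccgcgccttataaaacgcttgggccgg

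Among the ligands Wnt3a rose and Wnt2b and Wnt5a fell, while 11 of the 14 tested were not called. Wnt3a (ENSMUSG00000009900, chromosome 11, 59248033 to 59290752, mm10) stood at 27.6, 15.7, 18.1 and 13.4 TPM in trex replicates 1 to 4 and at 11.2, 8.11, 10.4 and 10.1 TPM in wt replicates 1 to 4. Every trex library lay above every wt library, with replicate 1 the highest. The group means were 18.7 ± 6.23 and 9.94 ± 1.31 TPM, a 1.88-fold difference. On the log2 scale trex was higher by 0.81 ± 0.20 (SE), and limma gave an adjusted p of 0.0432. Wnt9a, whose start lies beside that of Wnt3a with 16175 bases between the genes, was not called (6.13 ± 1.57 and 5.55 ± 1.21 TPM, adjusted p = 0.705).

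Wnt1, the other dorsal midline ligand, stood at 34.0, 22.8, 20.4 and 14.2 TPM in trex and at 20.7, 18.5, 19.6 and 14.4 TPM in wt. The groups overlapped across most of their range, and trex replicate 1 was the highest library. The log2 difference of 0.25 had a 95% interval from -0.27 to 0.78 and an adjusted p of 0.487 in limma. Of 9 markers of the dorsal neural tube, Pax7, Zic1 and Olig3 fell, Msx2 rose and 5 were not called. Of those 5, Lmx1a lay wholly above wt (limma adjusted p = 0.138). It held 35.3, 8.85, 12.4 and 9.08 TPM in trex and 5.57 to 8.07 TPM in wt. The groups overlapped for Pax3, Msx1, Atoh1 and Gdf7. The summed level of the 9 markers ran from 266 to 379 TPM over the trex libraries and from 319 to 374 TPM over wt. Trex replicate 1 was the highest of all 8. The markers of the posterior axis, which include T, Tbx6, Cdx2 and caudal Hox genes, summed to between 321 and 477 TPM in trex and between 33.8 and 140 TPM in wt. Of these, 7 of 8 were tested and Hoxc8, Hoxa9 and Hoxb9 rose. T, Tbx6, Cdx2 and Fgf8 were not called, though T and Tbx6 lay wholly above wt. Most of the trex sum was Hoxb9 alone, at 382, 337, 259 and 345 TPM. In wt Hoxb9 held 29.3, 8.57, 88.9 and 110 TPM. Hoxc9 was not tested, since its mean over all 8 libraries was below 1 TPM; it held 2.07, 1.502, 0.621 and 3.22 TPM in trex, 0.0757 TPM in wt replicate 1 and no read in the other wt libraries. The part of either tissue in the level of Wnt3a was not tested, and in bulk tissue fewer cells of a type and less RNA per cell cannot be told apart.

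Wnt2b (ENSMUSG00000027840, chromosome 3, 104945272 to 104961921) fell the furthest of the called ligands. Its level was 0.949, 1.32, 1.57 and 2.03 TPM in trex and 4.16, 5.42, 3.42 and 4.01 TPM in wt. The highest trex library lay well below the lowest wt library. The means were 1.47 ± 0.45 and 4.25 ± 0.84 TPM, 2.90-fold lower in trex. On the log2 scale trex differed by -1.10 ± 0.18 (SE), and limma gave an adjusted p of 0.0125, the smallest of the 46 genes.

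Wnt5a (ENSMUSG00000021994, chromosome 14, 28504750 to 28527448), the main ligand of Ror receptors, had the highest mean of the ligands in wt. It stood at 33.6, 25.1, 27.9 and 30.7 TPM in trex and at 45.6, 50.1, 36.96 and 37.2 TPM in wt. Every trex library lay below every wt library, though trex replicate 1 came close to wt replicates 3 and 4. The means were 29.3 ± 3.66 and 42.5 ± 6.47 TPM, 1.45-fold lower in trex. On the log2 scale this was -0.52 ± 0.12 (SE; limma adjusted p = 0.0379). In trex the highest mean among ligands was that of Wnt2, at 38.0 ± 19.4 TPM, a spread that overlapped the levels of Wnt5a and Wnt6.

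Wnt16 and Wnt3 also lay wholly below wt but were not called. Wnt16 held 1.43, 5.18, 7.35 and 5.78 TPM in trex and 9.45, 12.8, 12.5 and 10.5 TPM in wt. Trex replicate 1 was the lowest of these. On the log2 scale it differed by -1.18 ± 0.34 (SE; limma adjusted p = 0.0679), and without trex replicate 1 it was called (limma adjusted p = 0.0153, up to 0.171 without another library). Wnt3 averaged 6.23 ± 0.97 TPM in trex against 8.82 ± 2.04 TPM in wt (adjusted p = 0.128). The ligands Wnt4, Wnt5b, Wnt6, Wnt7a, Wnt7b and Wnt11 overlapped between the groups, with log2 differences between -0.41 for Wnt7a and 0.32 for Wnt6 and adjusted p values of 0.209 or more. Summed over the 15 ligand genes, the libraries held 187 to 226 TPM in trex and 213 to 233 TPM in wt.

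**Figure D2:**
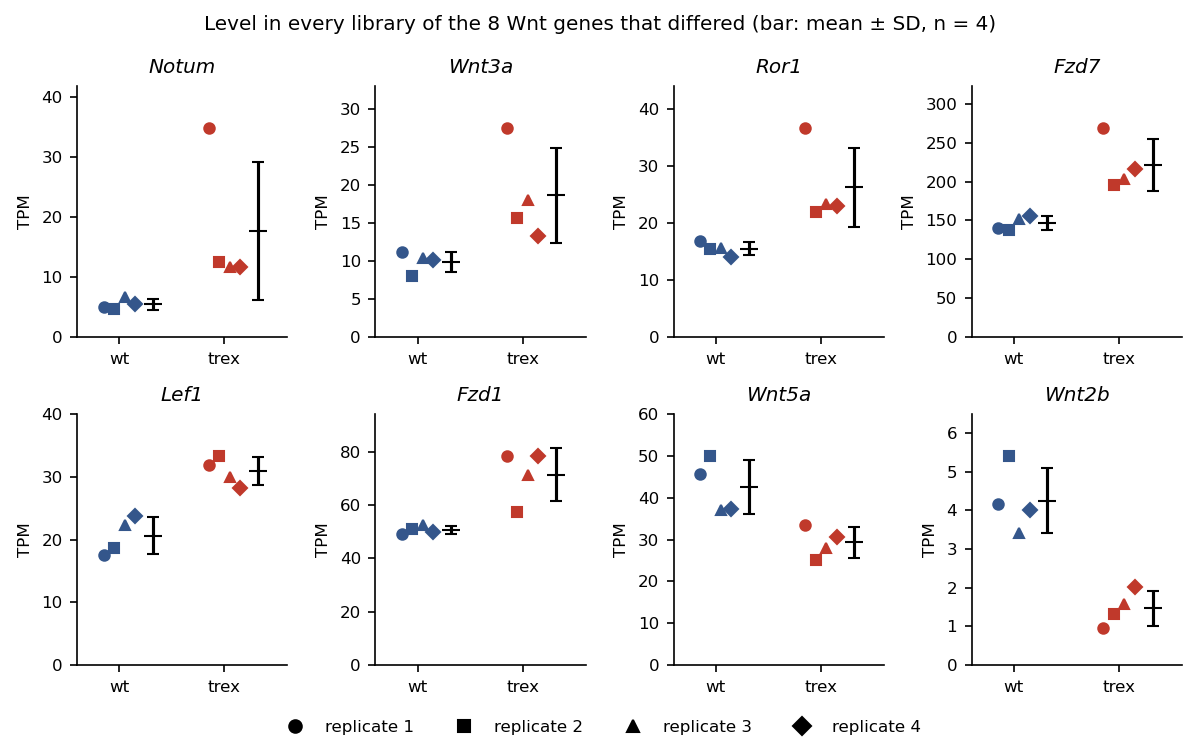
TPM of the 8 called Wnt genes in every library, blue for wt and red for trex, with a symbol for each replicate number and the mean ± SD (n = 4) beside each group. The groups do not overlap in any panel, and trex replicate 1 is the highest library for Notum, Wnt3a, Ror1 and Fzd7.

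Wnt2 varied more within each genotype than between them. Its level was 17.5, 26.8, 47.2 and 60.4 TPM in trex replicates 1 to 4, and 22.9, 36.4, 32.7 and 48.1 TPM in wt replicates 1 to 4. The log2 difference of 0.01 had a 95% interval from -0.83 to 0.85. Cardiomyocyte markers summed to 196, 221, 1883 and 2231 TPM in trex and to 280, 1141, 592 and 2401 TPM in wt, which ranks the libraries of each genotype in the same order as Wnt2. The antagonist gene Sfrp5, known from the ventral foregut endoderm, varied as widely, with 6.02, 9.79, 29.5 and 44.6 TPM in trex and 5.04, 9.65, 19.4 and 29.9 TPM in wt. Liver markers summed to 19.2, 35.9, 242 and 463 TPM in trex and to 14.9, 10.2, 169 and 181 TPM in wt, so the same libraries, replicates 3 and 4 of each genotype, were high for both. None of the 7 cardiomyocyte or 7 tested liver markers was called in the main limma fit or voom. In that limma fit 0 and 1 had an unadjusted p below 0.05. All 7 cardiomyocyte and 6 of 8 liver markers were above 0 in every library. The part of heart and liver tissue in these levels was not tested.

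**Figure D3:**
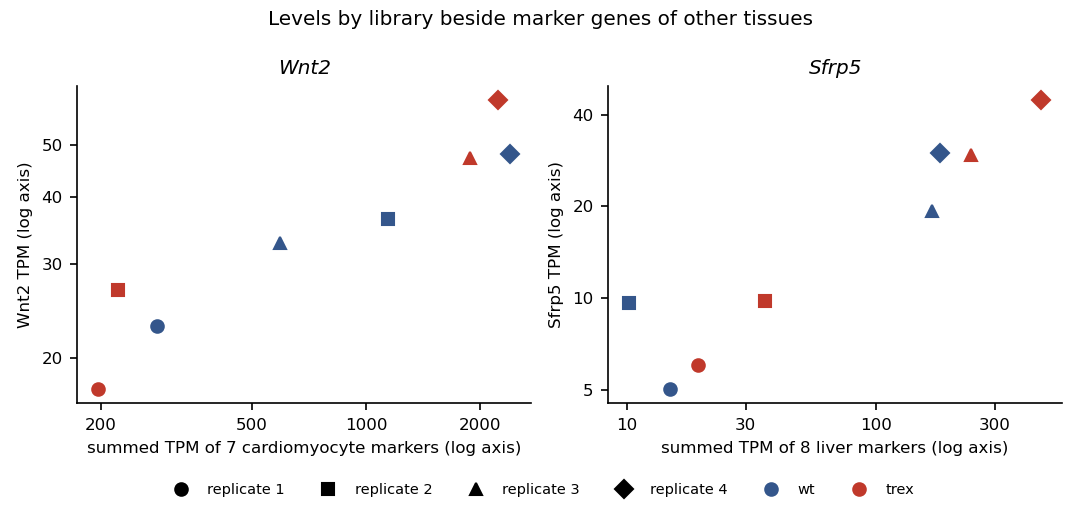
Left, Wnt2 TPM against the summed TPM of 7 cardiomyocyte markers; right, Sfrp5 TPM against the summed TPM of 8 liver markers; both axes are logarithmic, and each point is a library. Both genes reach their highest level in trex replicate 4, at 60.4 and 44.6 TPM, and each is lowest in replicate 1 of either genotype.

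Among the Frizzled and Lrp genes Fzd7 and Fzd1 rose and none fell, with 10 of 12 not called. Their summed level was 775 to 994 TPM over the trex libraries and 702 to 729 TPM over wt, so every trex library lay above wt. Fzd7 (ENSMUSG00000041075, chromosome 1, 59482424 to 59486955) stood at 269, 196, 203 and 216 TPM in trex and at 141, 138, 152 and 156 TPM in wt. All 4 trex libraries were above wt, and replicate 1 stood highest. The means were 221 ± 33.1 and 147 ± 8.70 TPM, a 1.51-fold difference. This was 0.58 ± 0.10 (SE) on the log2 scale, with a limma adjusted p of 0.0135. Fzd7 and Fzd2 were the most abundant Frizzled genes in both genotypes.

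Fzd1 (ENSMUSG00000044674, chromosome 5, 4753839 to 4758035) held 78.6, 57.5, 71.3 and 78.6 TPM in trex. In wt it held 49.1, 50.9, 52.6 and 49.98 TPM. Trex replicate 2 was the closest to wt. Trex was 1.41-fold higher, by 0.48 ± 0.10 (SE) on the log2 scale (limma adjusted p = 0.0236). Fzd2, Lrp5 and Lrp6 showed the same separation without being called. Fzd2 averaged 196.9 ± 34.7 TPM in trex against 158 ± 9.76 TPM in wt (adjusted p = 0.114). Lrp5 averaged 41.8 ± 4.60 against 34.7 ± 1.49 TPM (adjusted p = 0.0771), and Lrp6 59.8 ± 9.31 against 49.5 ± 1.23 TPM (adjusted p = 0.119). Lrp6 was called without trex replicate 1 (0.0467) and Lrp5 without trex replicate 2 (0.0344).

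Fzd3, a receptor of planar polarity and axon guidance, was the single receptor gene whose trex values all lay below wt. It averaged 72.0 ± 5.87 TPM in trex against 85.97 ± 6.22 TPM in wt, with a limma adjusted p of 0.0682. It was called lower by voom, after median-of-ratios or quantile scaling, once globin, mitochondrial and sex chromosome genes were removed from TPM, and without trex replicate 2. Fzd10, of the dorsal neural tube, averaged 83.2 ± 18.2 TPM in trex against 101 ± 5.60 TPM in wt (adjusted p = 0.182), and was called lower without trex replicate 1 (0.0378). It was 106 and 89.99 TPM in trex replicates 1 and 2 and 70.7 and 66.4 TPM in replicates 3 and 4, of which replicate 1 lay within the wt range. Fzd4, Fzd5, Fzd6, Fzd8 and Fzd9 had log2 differences between -0.06 and 0.03. Among them the interval was narrowest for Fzd8, from -0.17 to 0.15, and widest for Fzd5, from -0.47 to 0.54. Progenitor markers of the neural tube summed to between 309 and 431 TPM in trex and between 458 and 553 TPM in wt. Of these, 2 of 9, Sox3 and Pax6, fell. Dbx1 (16.9 ± 10.8 and 52.1 ± 7.70 TPM) and Dbx2 (2.87 ± 0.84 and 4.96 ± 0.70 TPM) also lay wholly below wt. Neither was called (limma adjusted p = 0.111 and 0.0554), though Dbx1 was called without trex replicate 1 (0.00295). The groups overlapped for Sox1, Sox2, Nkx6-1, Nkx6-2 and Olig2. All 7 neuron markers fell, led by Nefm, Nefl and Dcx, from a sum of 353 to 619 TPM in wt to 60.6 to 167 TPM in trex. The part of neural tissue in the levels of Fzd3 and Fzd10 was not tested.

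Of the Ror receptors Ror1 rose. Ror1 (ENSMUSG00000035305, chromosome 4, 100095791 to 100444765) stood at 36.7, 22.0, 23.3 and 23.0 TPM in trex and at 16.8, 15.5, 15.7 and 14.1 TPM in wt. The other 3 trex libraries lay close together, and replicate 1 far above them. The means were 26.3 ± 7.00 and 15.5 ± 1.12 TPM, a 1.69-fold difference. On the log2 scale this was 0.70 ± 0.15 (SE; limma adjusted p = 0.0313). Without trex replicate 1 it was 0.53, with an adjusted p of 0.00629, and over all libraries left out in turn the adjusted p reached 0.0989. Ror2, the more abundant of the pair, held 96.6, 62.4, 60.0 and 73.4 TPM in trex against 53.2, 51.4, 58.0 and 56.5 TPM in wt. Its trex values lay above wt by little in replicates 2 and 3, and it was not called (adjusted p = 0.108). The ligand gene Wnt5a and the receptor gene Ror1 changed in opposite directions.

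Of the nuclear factors Lef1 rose. Lef1 (ENSMUSG00000027985, chromosome 3, 131110471 to 131224356), which partners beta-catenin on target genes, held 31.9, 33.4, 29.9 and 28.3 TPM in trex and 17.6, 18.7, 22.4 and 23.9 TPM in wt. It was the single riser whose highest trex library was not replicate 1, and its trex values were tightly grouped. The means were 30.9 ± 2.23 and 20.6 ± 2.96 TPM, a 1.498-fold difference. Lef1 was higher by 0.57 ± 0.10 (SE) on the log2 scale (limma adjusted p = 0.0177). An antisense gene, Gm43352, shares 13.7% of the exonic bases of Lef1 and averaged 1.04 TPM in trex against 0.803 TPM in wt. Tcf7 stood at 121, 91.2, 87.9 and 80.5 TPM in trex and at 66.8, 69.2, 87.2 and 89.7 TPM in wt. Its groups overlapped through wt replicates 3 and 4, and it was not called (adjusted p = 0.233).

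Among the feedback targets Notum rose and the other 4 were not called. Notum encodes a secreted enzyme that removes the lipid from Wnt proteins. The gene (ENSMUSG00000042988, chromosome 11, 120653788 to 120661175) stood at 34.8, 12.5, 11.7 and 11.7 TPM in trex and at 5.04, 4.61, 6.69 and 5.50 TPM in wt. All trex libraries were above wt, but replicate 1 stood far above the others. The means were 17.7 ± 11.4 and 5.46 ± 0.89 TPM, a 3.24-fold difference. On the log2 scale Notum was higher by 1.38 ± 0.32 (SE; limma adjusted p = 0.0367). Without trex replicate 1 this was 1.01 with an adjusted p of 0.0047, and with each library left out in turn the adjusted p reached 0.113. Notumos, an antisense gene, shares 29.4% of the exonic bases of Notum and averaged 0.94 TPM in trex against 0.246 TPM in wt. The libraries are strand-specific, but whether the counting used strand is not given in the sources used here, so reads of Notum and Notumos, and of Lef1 and Gm43352, cannot be told apart.

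Axin2, the most widely used readout of canonical signalling, held 99.1, 87.3, 70.3 and 65.2 TPM in trex and 79.5, 79.8, 79.2 and 73.4 TPM in wt. The trex libraries lay on both sides of the narrow wt range, replicates 1 and 2 above it and 3 and 4 below. The log2 difference was 0.03 with a 95% interval from -0.25 to 0.30 (adjusted p = 0.906), and its sign was negative with voom, after median-of-ratios scaling and without globin, mitochondrial and sex chromosome genes. Nkd1 and Znrf3, which act inside the cell and on Frizzled receptors to restrain the signal, were highest in trex replicate 1 as well, at 66.8 and 22.5 TPM. Their group means were 57.7 ± 7.93 and 50.8 ± 2.02 TPM for Nkd1 and 17.8 ± 3.64 and 14.3 ± 1.11 TPM for Znrf3 (adjusted p = 0.244 and 0.206). Nkd2 went the other way in that library, with 17.5 TPM against 27.5 to 37.4 TPM in the other trex libraries and 28.8 to 31.2 TPM in wt (adjusted p = 0.629).

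None of 7 secreted antagonist genes and none of the 4 genes of R-spondins and Lgr5 was called in the main limma fit or voom. In that limma fit 2 and 0 of them had an unadjusted p below 0.05. With array weights limma called Sfrp1, Sfrp2, Dkk1, Dkk2 and Dkk3 higher, beside 35.1% of all genes. Their adjusted p values there ran from 0.000498 for Dkk2 to 0.0326 for Dkk3. It did not call Sfrp5, Frzb, the R-spondin genes or Lgr5. In the main fit all 7 antagonist genes had a log2 difference above 0, as had 56.7% of all genes tested. Frzb, at 0.01, was below 0 with voom, after median-of-ratios or quantile scaling and with sex as a covariate. Dkk2, which blocks Lrp co-receptors, came closest, with 3.70, 5.25, 9.31 and 10.99 TPM in trex and 2.93, 3.62, 2.68 and 2.69 TPM in wt. Its groups did not overlap, but trex replicate 1 stood only just above wt replicate 2. Its mean was 2.45 times the wt mean, and the log2 difference of 0.97 ± 0.28 (SE) had a limma adjusted p of 0.0669. It was called without trex replicate 1 (0.0166) or trex replicate 2 (0.0481), and without another library its adjusted p reached 0.152. Sfrp2, which binds Wnt proteins, averaged 204 ± 11.4 TPM in trex against 175 ± 17.5 TPM in wt (adjusted p = 0.0914), and was called without wt replicate 1 (0.0402). Sfrp1, the most abundant antagonist gene, stood at 266 ± 48.5 and 242 ± 18.3 TPM, and trex replicate 1 was its lowest library at 200.8 TPM (adjusted p = 0.549). Frzb, Dkk1 and Dkk3 overlapped between the groups, with adjusted p values of 0.240 or more. Dkk1 reached 17.7 TPM in trex replicate 3 and 8.14 to 10.8 TPM in the other trex libraries.

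R-spondins strengthen Wnt signals by removing Znrf3 from the cell surface. Rspo1 averaged 14.3 ± 2.31 TPM in trex against 19.2 ± 4.45 TPM in wt (adjusted p = 0.173). Its wt replicates 1 and 2, at 21.5 and 24.3 TPM, lay above all trex libraries, while wt replicates 3 and 4 lay within the trex range. Rspo3 stood at 20.98 ± 3.74 and 22.96 ± 2.71 TPM, Rspo2 at 6.03 ± 0.74 and 6.15 ± 0.75 TPM, and Lgr5 at 1.93 ± 0.26 and 1.91 ± 0.24 TPM. Their adjusted p values were 0.542 or more.

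Of 57 further genes of the pathway, 55 were tested, 3 rose, 2 fell and 50 were not called, so that 9.09% were called, a share close to the 8.71% of all genes tested. Lgr6 and Sfrp4 were below 1 TPM. Dact1, a Dishevelled-binding regulator, rose from 61.4 ± 3.91 to 92.5 ± 12.5 TPM (adjusted p = 0.0131). The glypican gene Gpc3 rose from 656 ± 58.6 to 1007 ± 176 TPM (adjusted p = 0.0233), and the nuclear factor gene Tcf7l1 from 68.9 ± 1.47 to 79.9 ± 4.57 TPM (adjusted p = 0.0394). Tcf7l1 was not called by voom (0.104), after median-of-ratios (0.0993) or quantile scaling (0.0588), or by limma without a variance trend (0.0708). Tle1, a co-repressor, fell from 44.5 ± 2.85 to 32.4 ± 3.72 TPM (adjusted p = 0.0198), and the polarity gene Celsr3 from 5.36 ± 1.42 to 2.41 ± 0.77 TPM (adjusted p = 0.0404). Without wt replicate 2 none of the 55 was called in limma, with 19 at an unadjusted p below 0.05, and this was the single library whose loss ended the call of Dact1 (0.0556). Leaving out other single libraries also ended the calls of Tcf7l1, Tle1, Gpc3 and Celsr3. Over all libraries left out in turn their limma adjusted p reached 0.125, for Celsr3 without wt replicate 2. The 12 cytoplasmic core genes, which hold beta-catenin in check or carry the signal, gave no call in the main limma fit or voom. In that limma fit 2 had an unadjusted p below 0.05. Without trex replicate 2 limma called Dvl2 (adjusted p = 0.0452) and Tnks (0.0326) higher, beside 18.6% of all genes. With array weights it called Dvl2 (0.0187) and Tnks (0.00946) higher and Axin1 (0.0069) lower, beside 35.1% of all genes. Ctnnb1, which encodes beta-catenin, averaged 1229 ± 18.1 TPM in trex against 1269 ± 34.7 TPM in wt (adjusted p = 0.536). Neither gene of Wnt secretion, Wls (99.2 ± 20.9 and 73.3 ± 2.39 TPM, adjusted p = 0.0798) and Porcn (17.8 ± 3.54 and 14.9 ± 1.10 TPM, adjusted p = 0.269), was called. Limma called Wls higher without trex replicate 2 (adjusted p = 0.0165) and with array weights (0.00126). None of 6 further targets, Sp5, Ccnd1, Myc, Sp8, Fgf8 and T, was called in the main limma fit or voom. In that limma fit 3 had an unadjusted p below 0.05. Limma called T higher without trex replicate 1 (adjusted p = 0.0155) or 2 (0.0405), and Myc higher without trex replicate 3 (0.0479). With array weights it called T (0.00534) and Ccnd1 (0.00511) higher. T, a gene of caudal progenitors, stood at 13.6 ± 5.09 and 7.45 ± 0.62 TPM with trex wholly above wt (adjusted p = 0.058).

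Low oxygen markers were high in the trex libraries too. They summed to 7713, 3377, 4946 and 6320 TPM in trex replicates 1 to 4 and to between 2448 and 2618 TPM in wt, and 5 of 8 rose, with Ldha, Bnip3 and Pdk1 leading. Of the 6 Wnt genes that rose, all but Lef1 were highest in trex replicate 1, the library highest in these markers, although Fzd1 was as high in replicate 4 to 3 digits. Surface epithelium markers summed to between 288 and 569 TPM in trex and between 195 and 267 TPM in wt (Krt8 and Krt18 rose), endothelial markers to between 225 and 295 TPM and between 174 and 204 TPM (Cdh5 and Tek rose). In lateral mesoderm Hand1 and Hand2 rose and Osr1 fell, and among 7 somite markers Uncx rose. In endoderm Nkx2-1 fell. The markers of the region itself, neural tube, somite and endoderm, were above 0 in every library. The part of these tissues and of low oxygen in the Wnt differences was not tested. Without trex replicate 1 all 8 Wnt genes were still called, among 12 in all, beside 10.7% of all genes. The others were Dkk2 and Lrp6, higher, and Wnt16 and Fzd10, lower.

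The calls changed with the library left out, and in both directions. Wnt2b, Fzd7 and Lef1 were called with any 1 library left out other than wt replicate 2. Wnt3a, Wnt5a, Fzd1, Ror1 and Notum were called without trex replicate 1 or 2, but not without trex replicate 3 or 4 or any wt library, with adjusted p values up to 0.129. Without wt replicate 2 none of the 46 was called in limma, at adjusted p values of 0.0523 for Wnt2b, 0.058 for Fzd7 and 0.0709 for Lef1, while 14 had an unadjusted p below 0.05; in the same setting 1.26% of all genes were called. In 2 wt libraries Y-linked genes were transcribed and in no trex library. With sex as a covariate none of the 46 was called in limma (14 at an unadjusted p below 0.05), beside 0.248% of all genes. The differences themselves were of similar size with that covariate, at -1.06 on the log2 scale for Wnt2b, 0.56 for Fzd7, 0.57 for Lef1, 0.70 for Ror1, 1.41 for Notum, 0.51 for Fzd1, 0.71 for Wnt3a and -0.49 for Wnt5a, with adjusted p values from 0.114 to 0.238. Each of the 8 genes kept the sign of its difference in each of the 21 alternatives that tested it. Since the groups of all 8 do not overlap, dropping, weighting or blocking libraries could not have reversed it. Nor could another pseudocount or filter, so the kept sign is no support in those settings. With voom on recovered reads all 8 were called and Fzd3 as lower, beside 9.61% of all genes. Without trex replicate 2 the 8 were called with Dkk2 and Lrp5, higher, and Fzd3, lower, beside 18.6% of all genes. Array weights, which count variable libraries less, called 19 beside 35.1% of all genes, and limma without a variance trend called 5 beside 6.62%, without Wnt3a, Wnt5a and Notum.

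**Figure D4:**
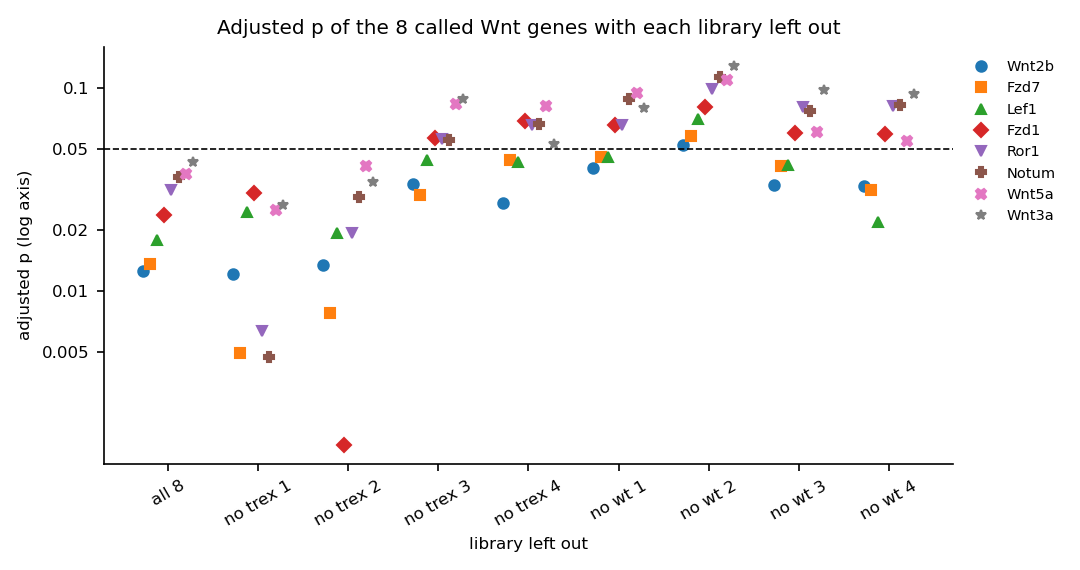
Adjusted p (logarithmic axis) of the 8 called Wnt genes with all 8 libraries and with each library left out; the dashed line is 0.05. Wnt2b, Fzd7 and Lef1 cross the line only without wt replicate 2, whereas the other 5 genes lie above it in 6 of the 8 cases with a library left out.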

How the data were processed

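RNA-seq libraries from 8 samples of the vagal region were compared, poly-A selected and strand-specific per the labels' protocols. The authors deposited TPM values for 55421 Ensembl genes, each sample summing to 1000000. CASAVA 1.8.2, STAR and mm10 are named per the submitters' processing notes; no source used here names the counter, its strand setting or the annotation. GENCODE M21 supplied symbols, coordinates and exonic lengths (55240 identifiers matched). TPM times exonic length gave whole multiples of a step, within 0.001 read, for 98.7% to 98.9% of values up to 200 reads; such recovered reads state depth and served a voom alternative.

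Genes with a mean of at least 1 TPM were tested with limma 3.58.1 in R 4.3.3 on log2(TPM + 1), two-sided, with a mean-variance trend and genotype as the only term. The log2 scale with a pseudocount of 1 understates changes of low genes. Adjusted p values are Benjamini-Hochberg over all 15717 genes tested, and intervals are limma's. For each gene whose groups did not overlap, an exact two-sided permutation test of the difference gave p = 0.0286, the smallest that 4 against 4 allows. That value follows from the separation itself and adds no support to it. On simulated data of this comparison with 15717 genes, the step found 48% of 50 genes shifted by a log2 value of 0.5, 88% of those shifted by 1, 92% by 1.5 and 98% by 2, with 9 unchanged genes among 172 calls. The shifted genes all had a mean log2(TPM + 1) above 2, and noise was drawn independently for each gene and library. These shares therefore do not cover lower genes or variation that many genes of a library share.

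The 47 genes and the lists were chosen with earlier results of these data known. All 47 genes are named by role, with values in every sample for called genes, Axin2, Lef1, Wnt1, Wnt3a and Wnt5a; of the other pathway genes the 3 called with the smallest p and the 2 most abundant, and of each marker list up to 3 called genes. The choice of any other gene, or of values by sample for it, followed a look at its values. Alternatives were other pseudocounts, filters, scalings and variance models, voom, a replicate block, sex and each library left out. Sex was read from Ddx3y, Eif2s3y, Kdm5d and Uty (a summed TPM above 1).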

Additional observations from a re-analysis of the deposited data

Results flagged for a closer look

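Each tested Wnt gene was examined in both genotypes for a library that lies far from the other 3, by Dixon's 95% limit. This met 11 of 92 sets of values, where about 1 in 20 arises by chance. Of these, 6 concern trex, and in each of the 6 the library was trex replicate 1 and the value the highest. It held 34.8 TPM of Notum (the other trex libraries 11.7 to 12.5), 36.7 TPM of Ror1 (22.0 to 23.3) and 46.2 TPM of Wnt6 (24.0 to 26.0). It also held 249 TPM of Fzd2 (178 to 182), 73.7 TPM of Lrp6 (54.1 to 56.6) and 15.1 TPM of Fzd6 (10.7 to 11.4).

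In wt, replicate 1 stood apart for Sfrp2 at 201.04 TPM (165 to 167 in the others) and for Wnt9a at 7.35 TPM (4.76 to 5.09). Wt replicate 2 held 13.98 TPM of Fzd6 (12.0 to 12.1), wt replicate 3 held 30.01 TPM of Wnt6 (20.6 to 21.9), and wt replicate 4 held 73.4 TPM of Axin2 (79.2 to 79.8).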

How the results depend on the processing

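Against 8 Wnt genes called of 46, limma called 4 with no filter on low values, 5 without a variance trend, 19 with array weights and 0 with sex as a covariate or in the 6 libraries low in Y-linked transcripts (14 and 11 at an unadjusted p below 0.05). Leaving out a library gave between 0 and 12. Of other pathway genes, 5 with all libraries, it called 3 with no filter, 3 without globin, mitochondrial and sex chromosome genes in TPM, 24 with array weights and 0 with sex as a covariate or in those 6 libraries (16 and 12 unadjusted), and 0 to 16 with a library left out. Over all genes, 1369 with all libraries, it called 694 with no filter, 5524 with array weights, 39 with sex as a covariate, 8 in those 6 libraries, and 199 to 2926 with a library left out. With the replicate number as a block it called 687 genes, 4 Wnt genes (Fzd7, Ror1, Wnt3a and Wnt2b) and 2 other pathway genes. The deviations of same-numbered libraries correlated by 0.16, -0.023, -0.0045 and 0.25, so the numbers are not taken to pair the samples. Some differently numbered libraries correlated as much, by 0.15 for trex 2 with wt 1 and 0.155 for trex 3 with wt 4. Trex 4 with wt 1 gave -0.26. Whether libraries of both genotypes share variation by their place in the numbering was not tested. The causes of the changes in calls were not tested.

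No called gene changed sign, but most of these settings could not reverse it, since the groups of the called genes do not overlap. Genes not called changed sign in 77 cases over 16 genes, with log2 values of up to 0.258 in size and adjusted p values of 0.104 or more. After median-of-ratios rescaling they were -0.0249 for Wnt2, -0.0290 for Fzd4, -0.0262 for Fzd9, -0.0250 for Frzb, -0.0136 for Lgr5 and -0.0108 for Axin2. After quantile normalization they were -0.0343 for Wnt2, -0.0314 for Fzd4, -0.0418 for Fzd5, -0.0768 for Fzd9, -0.0471 for Frzb and -0.0829 for Lgr5. Without globin, mitochondrial and sex chromosome genes in TPM they were -0.0303 for Wnt2, -0.0341 for Fzd4, -0.0313 for Fzd9, -0.0301 for Frzb, -0.0174 for Lgr5 and -0.0159 for Axin2. With voom they were -0.0456 for Wnt2, -0.0292 for Fzd4, -0.0245 for Fzd9, -0.0247 for Frzb, -0.0189 for Lgr5 and -0.0101 for Axin2. With sex as a covariate, and equally in the 6 libraries low in Y-linked transcripts, they were 0.0377 for Wnt5b, 0.0517 for Wnt11, -0.00569 for Fzd4, -0.0292 for Fzd9, -0.0772 for Frzb and -0.0561 for Lgr5. With array weights they were 0.238 for Wnt11, -0.0225 for Fzd4, -0.205 for Fzd9, 0.0497 for Rspo3 and -0.139 for Axin2. With each library left out in turn, genes that changed sign ranged over -0.258 to 0.318 for Wnt2, -0.120 to 0.000865 for Wnt5b, -0.0158 to 0.240 for Wnt9a, -0.181 to 0.130 for Wnt11, -0.0531 to 0.0724 for Fzd4, -0.113 to 0.219 for Fzd5, -0.0564 to 0.0162 for Fzd8, -0.122 to 0.114 for Fzd9, -0.102 to 0.797 for Sfrp5, -0.0853 to 0.109 for Frzb, -0.0186 to 0.326 for Dkk1, -0.0905 to 0.0370 for Rspo2, -0.0464 to 0.0653 for Lgr5, -0.0800 to 0.119 for Axin2 and -0.296 to 0.0536 for Nkd2. Whether depth limits the calls was not tested. The called gene with the fewest reads was Wnt2b, with 23, 32, 35 and 50 in trex replicates 1 to 4. Wnt10a at 0.498 TPM in wt was left untested.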
